A study of Mus musculus with 7 samples.

Results

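Atf3, Atf4, Atf5, Ddit3, Trib3, Chac1, Nupr1, Cebpb, Cebpg and Sesn2 are regulators at the core of the ATF4 stress pathway, and their transcript levels were compared in mouse SMB21 cells that carried a CRISPR guide against Ofd1, Kif3a or GFP. They were taken by gene symbol from a table of read counts, and all 10 were found among its 24047 genes and among the 12875 genes that passed a filter on low counts. They were chosen by their counts in these same libraries, which were low with both cilium guides, so their levels against the GFP control are given as a description, with no p-value. SMB21 is a medulloblastoma line from an adult mouse of the Ptch1tm1Mps/J background, labelled Ptch mutant, and every group shares that background. Ptch1 is the receptor that holds the Hedgehog pathway off. Cells grew as neurospheres and were infected with a lentiCRISPR vector, and RNA was taken 2 weeks after infection. The groups were Ofd1 CRISPR, with 3 libraries, Kif3a CRISPR, with 2 libraries, and GFP control, with 2 of the 3 replicates that the series text counts. Ofd1 is a protein of centrioles and basal bodies, Kif3a a motor of the kinesin-2 complex, and primary cilia cannot be built without either. Whether clones or pools of infected cells were sequenced is not given in the sources used here.

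In the integrated stress response, kinases that sense amino acid shortage, unfolded protein, viral RNA or heme loss phosphorylate the translation factor eIF2. General translation then drops while messages with upstream open reading frames, among them Atf4, Atf5 and Ddit3, are translated more. ATF4 protein pairs with C/EBP factors such as Cebpg and turns on genes for amino acid uptake and synthesis, tRNA charging and, under lasting stress, cell death. Because ATF4 is set largely by translation, its transcript is only part of its activity; ATF4 protein and eIF2 phosphorylation were not measured in these libraries.

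Library totals ran from 17961767 to 23022701 counts, and 3 counts in a library correspond to 0.130 to 0.167 CPM, the level used throughout, which is a gene's counts scaled by TMM to a common library total. Such a floor covers counting error only. All 15 markers listed for granule neuron progenitors, the cells from which Hedgehog medulloblastoma arises, passed the filter. Their summed level was 4970 to 5475 CPM in Ofd1 CRISPR, 5094 and 5200 CPM in Kif3a CRISPR, and 4937 and 4993 CPM in GFP control. Single markers moved both ways at an adjusted p under 0.05, so the sum hides their changes. In Ofd1 CRISPR 5 of the 15 rose and 5 fell, and in Kif3a CRISPR 5 rose and 6 fell. Smaller shares of all tested genes did so: 6.79% rose and 8.09% fell in Ofd1 CRISPR. In Kif3a CRISPR 9.19% rose and 10.9% fell. Kif3a itself was at 73.9 and 60.5 CPM in Kif3a CRISPR, against 104 and 104 CPM in GFP control. Ofd1 was at 21.0, 20.0 and 22 CPM in Ofd1 CRISPR and 22.6 and 23.2 CPM in GFP control, and the edit itself was not measured. Over all tested genes the Ofd1 CRISPR replicate 2 library lay nearer to Kif3a CRISPR replicate 2 (5.48 as chi-square over its degrees of freedom) than to Ofd1 CRISPR replicates 1 and 3 (9.18 and 7.33). Ofd1 CRISPR replicate 3 also lay nearer to Kif3a CRISPR replicate 2 (6.67) than to any Ofd1 CRISPR library, and Kif3a CRISPR replicate 2 nearer to both of these than to Kif3a CRISPR replicate 1 (8.61). The GFP control libraries were the closest pair at 3.60, and no pair was a duplicate.

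In the GFP control cells, Atf4 and Atf5 were by far the most abundant of the 10 transcripts per length of exon. Divided by the length of all annotated exons, Atf4 was at 256 ± 17.3 CPM per kilobase and Atf5, its closest relative among the bZIP factors, at 247 ± 25.2 CPM per kilobase (SD, n = 2), a difference inside the spread of the libraries. Chac1, Trib3 and Cebpg followed at 32.1 ± 8.03, 32.0 ± 10.7 and 30.5 ± 3.05 CPM per kilobase, which the spread does not separate. Cebpb stood at 24.1 ± 1.05 CPM per kilobase, and Nupr1, Sesn2 and Ddit3, at 19.9 ± 3.01, 18 ± 3.77 and 16.9 ± 3.80 CPM per kilobase, overlapped each other. Atf3 was the lowest of the 10 at 3.82 ± 0.492 CPM per kilobase. The annotation used for the counts is not given in the sources used here, and with the longest transcript in place of all exons the order from the third place on changes, while Atf4 and Atf5 keep the lead.

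With the cilium guides the levels per kilobase were spaced differently. Atf4 remained first, at 156 ± 21.1 CPM per kilobase in Ofd1 CRISPR (SD, n = 3) and 153 ± 19.5 CPM per kilobase in Kif3a CRISPR (SD, n = 2). Atf5 remained second but far behind it, at 39.2 ± 12.6 CPM per kilobase in Ofd1 CRISPR and 29.8 ± 13.3 CPM per kilobase in Kif3a CRISPR. Below Atf5, Cebpg was at 20.8 ± 2.03 CPM per kilobase in Ofd1 CRISPR and 19.8 ± 0.15 CPM per kilobase in Kif3a CRISPR. Chac1, at 5.73 ± 4.42 and 3.28 ± 2.62 CPM per kilobase in the same order, and Trib3, at 5.45 ± 2.33 and 3.04 ± 1.26 CPM per kilobase, lay below Cebpg, where in GFP control the spread did not separate the 3 genes.

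**Figure D1:**
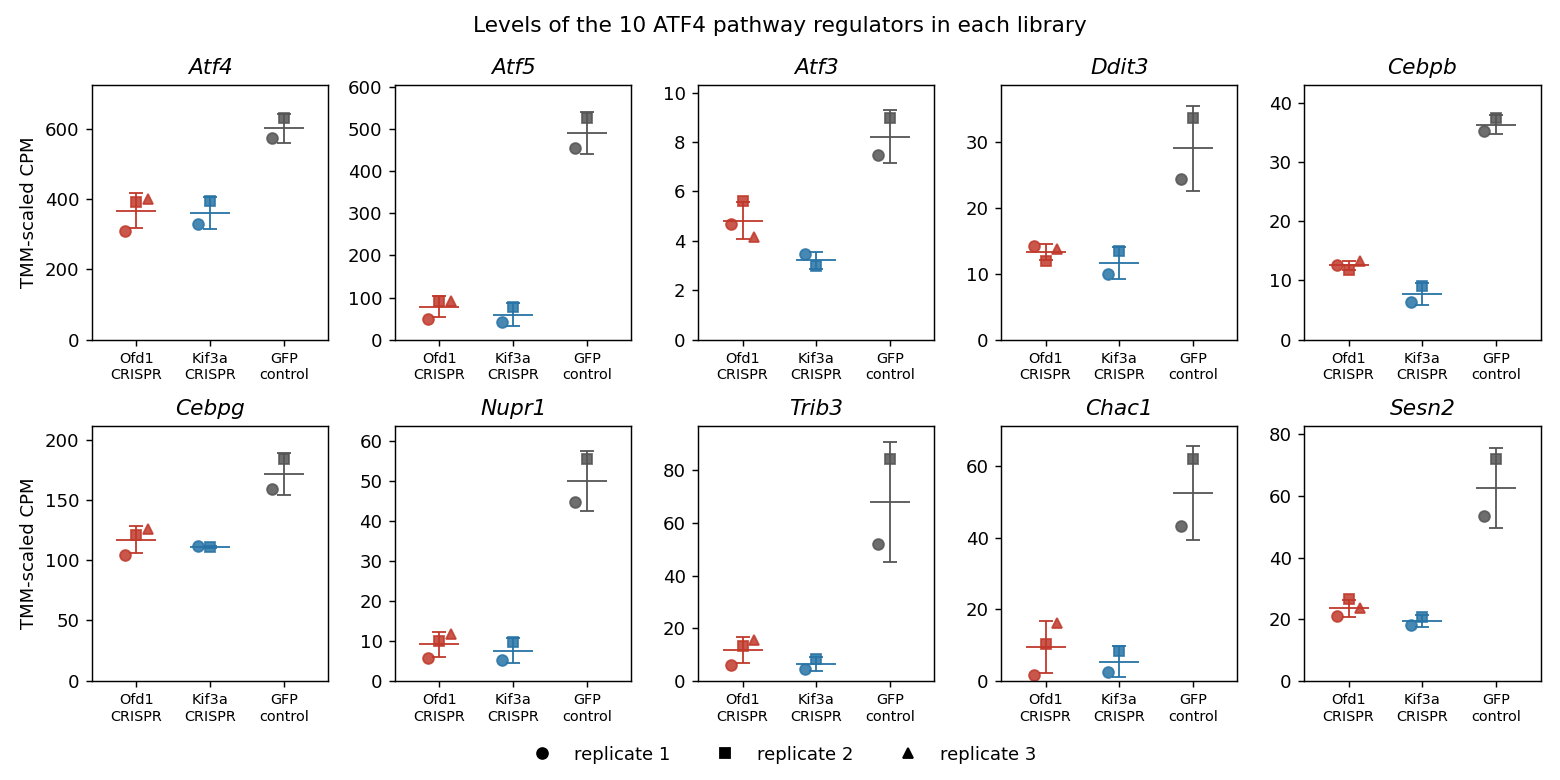
Level of each of the 10 regulators as TMM-scaled CPM (linear axes from 0, a different scale in each panel) in Ofd1 CRISPR (red, 3 libraries), Kif3a CRISPR (blue, 2 libraries) and GFP control (grey, 2 libraries); symbols are single libraries, horizontal lines the group means and bars 1 SD. In all 10 panels the 5 Ofd1 and Kif3a CRISPR libraries lie below both GFP control libraries, with the widest separation for Atf5.

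Every one of the 10 regulators was lower in all 5 libraries with a cilium guide than in both GFP control libraries, but by very unequal amounts. Atf5, Trib3, Chac1 and Nupr1 were at 9.50% to 18.3% of their GFP control level, Cebpb, Sesn2, Ddit3 and Atf3 at 21.2% to 58.7%, and Atf4 and Cebpg at 60.0% to 68.3%. All 10 passed the threshold of an adjusted p under 0.05 in the lower direction in both comparisons with GFP control; over all tested genes 8.09% were called lower in Ofd1 CRISPR and 10.9% in Kif3a CRISPR. Of all tested genes, 20.7% had all 5 libraries below both GFP control libraries. Nothing is read from these counts, since the same comparisons chose the genes. The median log2 fold change of the 10 was -1.47 in Ofd1 CRISPR and -1.97 in Kif3a CRISPR, where the median of all tested genes was 0.00 and 0.01. In bulk RNA, fewer cells that express a gene and less RNA per cell cannot be told apart.

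Atf4, the bZIP factor that gives the pathway its name, had 309.7, 391 and 399.9 CPM in Ofd1 CRISPR, 329 and 394 CPM in Kif3a CRISPR, and 574 and 631 CPM in GFP control. The GFP control libraries stood clear above the 5 libraries with a cilium guide. Between its lowest and highest library Atf4 differed 1.29-fold in Ofd1 CRISPR and 1.20-fold in Kif3a CRISPR. The median gene of at least 2 CPM differed 1.14-fold and 1.08-fold in the same order. The log2 fold change of Atf4 was -0.72 (SE 0.110) in Ofd1 CRISPR and -0.74 (SE 0.122) in Kif3a CRISPR.

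Atf5 encodes a factor that is translated under eIF2 phosphorylation much as Atf4 is, acts in the mitochondrial stress response, and is known in neural progenitors for keeping them from differentiating. It had 49.2, 92.4 and 92.8 CPM in Ofd1 CRISPR, 40.6 and 78.1 CPM in Kif3a CRISPR, and 456 and 527 CPM in GFP control. No other regulator left so wide an empty gap, with the lower GFP control library 4.91 times the highest library with a cilium guide. Its log2 fold change was -2.65 (SE 0.257) in Ofd1 CRISPR and -3.06 (SE 0.304) in Kif3a CRISPR. The levels of Atf5 and Atf4 per kilobase were alike in GFP control, and their log2 fold changes were far apart.

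Trib3 encodes a pseudokinase that is induced by ATF4 and Ddit3, binds ATF4 and damps its activity, and binds AKT. It had 6.01, 13.2 and 15.5 CPM in Ofd1 CRISPR, 4.58 and 8.36 CPM in Kif3a CRISPR, and 51.9 and 84.2 CPM in GFP control. Its log2 fold change was -2.56 (SE 0.301) in Ofd1 CRISPR and -3.42 (SE 0.370) in Kif3a CRISPR, where it was the lowest value of the 10. Chac1, an enzyme that breaks down glutathione, had 1.72, 10.3 and 16.1 CPM in Ofd1 CRISPR, 2.33 and 8.41 CPM in Kif3a CRISPR, and 43.2 and 61.8 CPM in GFP control. The replicate 1 libraries of both CRISPR groups held 35 Chac1 counts in Ofd1 CRISPR and 54 in Kif3a CRISPR, and the other libraries with a cilium guide 156 to 313. The log2 fold change of Chac1 was -2.49 (SE 0.521) in Ofd1 CRISPR and -3.34 (SE 0.640) in Kif3a CRISPR, with SEs above those of the other 9 regulators. Nupr1, a small chromatin-associated protein of the stress response, had 5.72, 10.1 and 11.8 CPM in Ofd1 CRISPR, 5.31 and 9.70 CPM in Kif3a CRISPR, and 44.8 and 55.5 CPM in GFP control. No library with a cilium guide came near a GFP control library for any of these genes, the smallest ratio across the gap being 2.69 for Chac1.

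The promoters of Chac1, Nupr1 and Atf3, and a short stretch at the start of Trib3, are shown because they hold the letters of the composite element that ATF4 and a C/EBP partner bind. The letters searched were TGATGNAAN on both strands, in RefSeq windows of 250 bases before to 50 bases after each start on GRCm38.p6, and all 10 regulators had a window. A match was found in 4 of the 10, and in 652 of the 16738 genes of the table with a window, or 3.90%. In the sequences below, written 5′ to 3′ along the gene, capitals mark the match, which in each case reads on the other strand. The Atf3 sequence is chr1:191183334-191183583 on the minus strand, with the match starting 111 bases before the start. The Chac1 sequence is chr2:119350992-119351241 on the plus strand, with the match 194 bases before the start. The Nupr1 sequence is chr7:126625471-126625720 on the minus strand, with the match 111 bases before the start. The Trib3 sequence is chr2:152344029-152344057 on the minus strand, with the match 13 bases after the start.
Atf3: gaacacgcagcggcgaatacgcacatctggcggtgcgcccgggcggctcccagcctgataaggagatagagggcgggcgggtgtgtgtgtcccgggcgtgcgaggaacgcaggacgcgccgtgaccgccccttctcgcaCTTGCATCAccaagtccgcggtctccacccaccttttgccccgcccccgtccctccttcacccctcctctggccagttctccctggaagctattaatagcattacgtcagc
Chac1: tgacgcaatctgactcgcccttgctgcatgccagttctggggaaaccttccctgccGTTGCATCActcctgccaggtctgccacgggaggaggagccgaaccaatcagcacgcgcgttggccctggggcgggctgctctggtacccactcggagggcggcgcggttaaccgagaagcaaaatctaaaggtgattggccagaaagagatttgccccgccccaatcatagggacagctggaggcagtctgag
Nupr1: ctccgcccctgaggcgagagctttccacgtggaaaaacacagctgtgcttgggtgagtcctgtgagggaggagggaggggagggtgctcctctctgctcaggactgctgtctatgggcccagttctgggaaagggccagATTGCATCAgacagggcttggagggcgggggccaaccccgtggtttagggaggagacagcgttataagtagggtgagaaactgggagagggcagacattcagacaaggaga
Trib3: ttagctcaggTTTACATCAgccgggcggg
The matches read TGATGCAAG in Atf3, TGATGCAAC in Chac1, TGATGCAAT in Nupr1 and TGATGTAAA in Trib3. The core TGATG, which lies inside the longer motif, was found in 5 of the 10 genes, the 4 above and Atf5, and in 38.1% of all genes with a window. The windows of Atf4, Atf5, Ddit3, Cebpb, Cebpg and Sesn2 do not hold the longer motif, which says nothing of sites elsewhere. Of the 4 regulators furthest below GFP control, Trib3, Chac1 and Nupr1 hold the match and Atf5 does not, and of the other 6 Atf3 holds it. A link between the match and the levels was not tested.

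Cebpb and Cebpg are C/EBP factors that pair with ATF4. Cebpb had 12.7, 11.7 and 13.2 CPM in Ofd1 CRISPR, 6.39 and 9.0 CPM in Kif3a CRISPR, and 35.2 and 37.4 CPM in GFP control. Its log2 fold change was -1.53 (SE 0.124) in Ofd1 CRISPR and -2.25 (SE 0.147) in Kif3a CRISPR. Cebpg, a dimer partner of ATF4, had 104, 121 and 126 CPM in Ofd1 CRISPR, 112 and 110.5 CPM in Kif3a CRISPR, and 159 and 184 CPM in GFP control. With log2 fold changes of -0.55 (SE 0.0881) in Ofd1 CRISPR and -0.63 (SE 0.0977) in Kif3a CRISPR, Cebpg was the least lowered of the 10. Cebpa, another C/EBP gene and the neighbour of Cebpg on the chromosome, fell, with a log2 fold change of -0.44 in Ofd1 CRISPR (adjusted p = 0.0177) and -0.59 in Kif3a CRISPR (adjusted p = 0.0051).

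Ddit3, known as CHOP, is the factor of the pathway most tied to cell death. It had 14.2, 11.9 and 13.7 CPM in Ofd1 CRISPR, 9.89 and 13.4 CPM in Kif3a CRISPR, and 24.4 and 33.6 CPM in GFP control. Atf3, an early stress factor that ATF4 induces, was the scarcest, with 4.68, 5.62 and 4.16 CPM in Ofd1 CRISPR, 3.46 and 2.96 CPM in Kif3a CRISPR, and 7.47 and 8.97 CPM in GFP control. The groups did not overlap, but the step was small, the lower GFP control library being 1.33 times the highest Ofd1 CRISPR library. Sesn2, a leucine sensor that restrains mTORC1, had 20.9, 26.4 and 23.5 CPM in Ofd1 CRISPR, 18 and 20.8 CPM in Kif3a CRISPR, and 53.4 and 71.9 CPM in GFP control. Its log2 fold change was -1.41 (SE 0.129) in Ofd1 CRISPR and -1.70 (SE 0.148) in Kif3a CRISPR, against -1.12 (SE 0.156) and -1.32 (SE 0.176) for Ddit3 and -0.77 (SE 0.171) and -1.35 (SE 0.197) for Atf3.

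**Figure D2:**
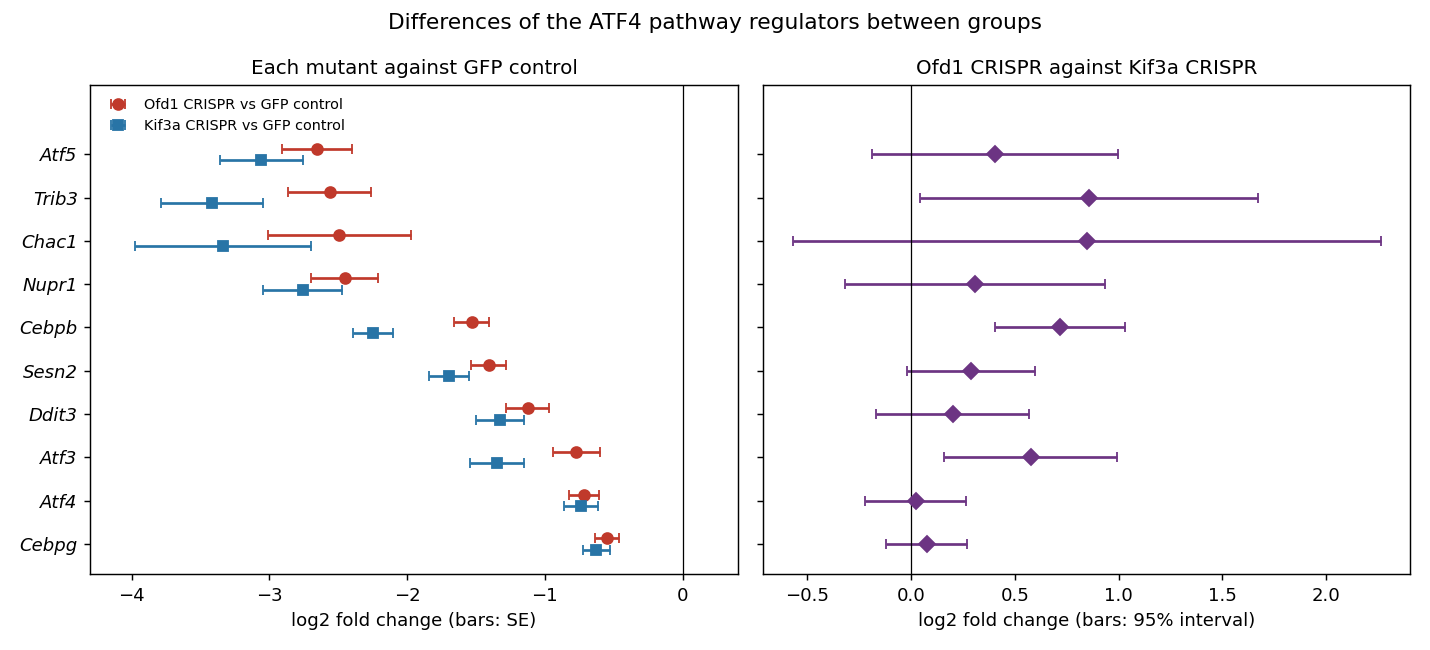
Log2 fold changes of the 10 regulators: on the left Ofd1 CRISPR (red circles) and Kif3a CRISPR (blue squares) against GFP control, with bars of 1 SE and no test; on the right Ofd1 CRISPR against Kif3a CRISPR with 95% intervals. On the left all values lie below 0 and Atf5, Trib3, Chac1 and Nupr1 lie below -2; on the right all values lie above 0, and the intervals of Atf3, Trib3 and Cebpb do not reach 0.

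Set directly against each other, the Ofd1 and Kif3a guides left the regulators at levels that edgeR did not separate. The log2 fold change of Ofd1 CRISPR over Kif3a CRISPR was above 0 for 6407 of 12875 tested genes, with a median of 0.00. It was above 0 for 10 of 10 regulators, with a median of 0.36. None was called by edgeR at an adjusted p under 0.05, where 0.179% of all tested genes were called in either direction; DESeq2 called 1 of the 10, Cebpb. At an unadjusted p under 0.05, edgeR had 3 of the 10 higher, Atf3, Trib3 and Cebpb, and 9.55% of all tested genes in either direction. The shared direction did not hold under every alternative. With 1 library left out, the lowest values were -0.106 for Atf4, -0.0048 for Atf5, -0.013 for Ddit3 and -0.088 for Nupr1. Under the other alternatives the lowest values were 0.14 for Chac1, 0.08 for Nupr1 and -0.05 for Atf4. The Ofd1 and Kif3a CRISPR libraries also entered the comparisons that chose the genes, so the shared direction is no independent evidence.

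Cebpb came nearest to the threshold: the 3 Ofd1 CRISPR libraries, at 11.7 to 13.2 CPM, all lay above the Kif3a CRISPR libraries, at 6.39 and 9.0 CPM, a separation that 12.5% of all tested genes showed. Its log2 fold change was 0.72 (95% interval 0.40 to 1.03, edgeR adjusted p = 0.096). The adjusted p was 0.014 with DESeq2, 0.0164 without the count filter and 0.0358 with a replicate block, and it ran from 0.014 to 0.995 over all alternatives, the highest without Kif3a CRISPR replicate 1. Trib3 differed by 0.86 (95% interval 0.04 to 1.67, adjusted p = 0.507) and Atf3 by 0.58 (95% interval 0.16 to 0.99, adjusted p = 0.381). For Atf5, at 0.40 (95% interval -0.19 to 1.00), and Chac1, at 0.85 (95% interval -0.57 to 2.27), the intervals leave room for differences in either direction. Atf4 and Cebpg were the most closely matched, at 0.02 (95% interval -0.22 to 0.27) and 0.08 (95% interval -0.12 to 0.27).

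**Figure D3:**
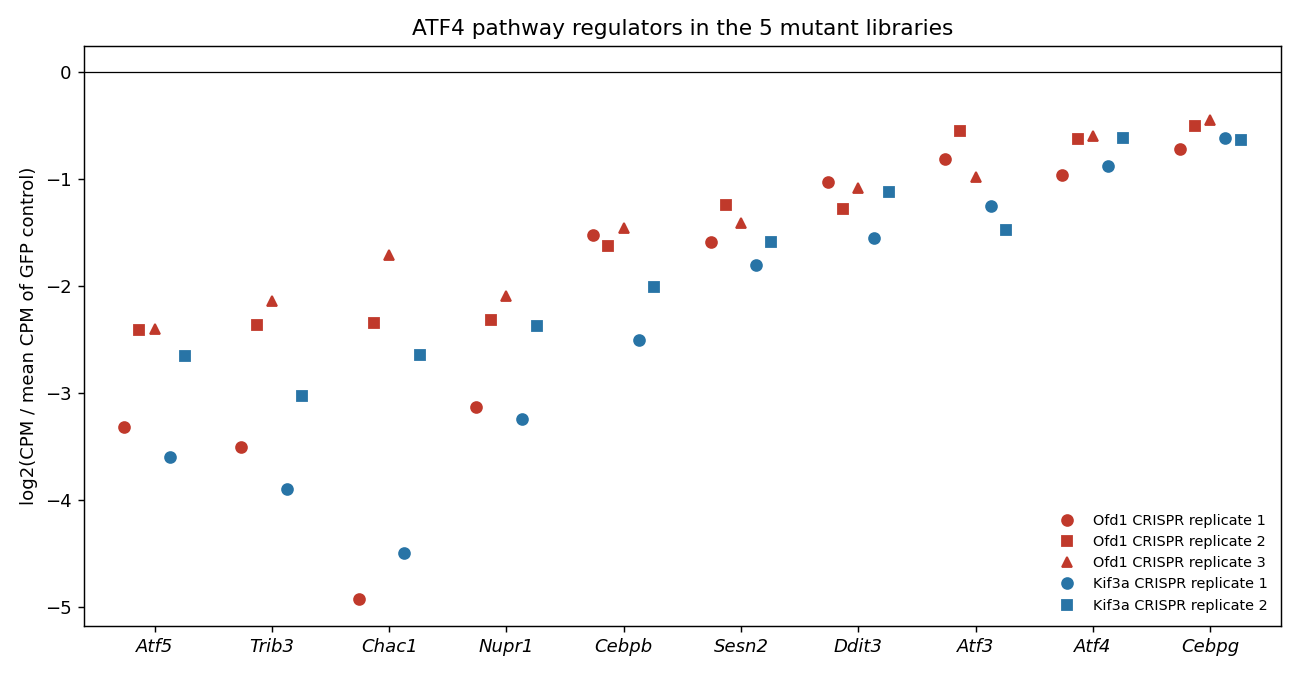
Level of each regulator in the 3 Ofd1 CRISPR (red) and 2 Kif3a CRISPR libraries (blue) relative to its mean in GFP control, as log2 of the ratio of CPM; circles, squares and triangles are replicates 1, 2 and 3, and the line at 0 is the GFP control mean. Replicate 1 of both groups lies lowest for Atf5, Trib3, Chac1 and Nupr1, while Cebpb, Ddit3, Atf3 and Cebpg spread less.

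Within each of the 2 CRISPR groups, the 4 regulators with the deepest differences from GFP control were also those that varied most between libraries. Chac1 differed 9.33-fold between the lowest and the highest Ofd1 CRISPR library, Trib3 2.57-fold, Nupr1 2.06-fold and Atf5 1.89-fold, where the median gene of at least 2 CPM differed 1.14-fold. Only 0.0349% of 11458 such genes differed more widely than Chac1 within Ofd1 CRISPR, and 0.271% more widely than Trib3. Between the Kif3a CRISPR libraries Chac1 differed 3.61-fold, Atf5 1.92-fold, Nupr1 1.83-fold and Trib3 1.82-fold, where the median gene differed 1.08-fold. Between the GFP control libraries the ratios of these genes were smaller, from 1.16 for Atf5 to 1.62 for Trib3. There Ddit3, at 1.38, and Sesn2, at 1.35, varied more than Nupr1, at 1.24, and Atf5. Atf4 and Cebpg differed 1.29-fold and 1.21-fold within Ofd1 CRISPR, less than these genes but more than the median gene.

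Replicate 1 was the lowest Ofd1 CRISPR library for 7 of the 10 regulators and the lower Kif3a CRISPR library for 8 of the 10. Over the 11458 tested genes of at least 2 CPM these shares were 35.2% and 48.3%. All 10 regulators were lower in GFP control replicate 1 than in replicate 2, as were 51.6% of the same 11458 genes. The Hedgehog target Gli1, at 167, 326 and 265 CPM in Ofd1 CRISPR, 201 and 309 CPM in Kif3a CRISPR, and 427 and 477 CPM in GFP control, was likewise lowest in replicate 1 of each CRISPR group. Ptch1 was also lowest in replicate 1 of each group, with 59.0, 85.1 and 86.9 CPM in Ofd1 CRISPR, 51.5 and 70.7 CPM in Kif3a CRISPR, and 139.8 and 149.9 CPM in GFP control. A share of Hedgehog signalling in the levels of the regulators was not tested.

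Listed markers of other cells were compared in the same libraries. The fibroblast and mesenchymal list, 4 of whose 10 genes passed the filter, summed to 130.4 to 214 CPM in Ofd1 CRISPR, 133 and 174 CPM in Kif3a CRISPR, and 326 and 329 CPM in GFP control, so it moved with the regulators, replicate 1 again being lowest. Most of it was Pdgfra, also a gene of glial progenitors, at 79.5 to 168.5 CPM in Ofd1 CRISPR, 89.5 and 131 CPM in Kif3a CRISPR, and 269 and 256 CPM in GFP control, while Col1a2, Col3a1 and Dcn had at most 2 counts in any library. The microglia and macrophage list, with 4 of 18 genes past the filter, summed to 20.6 to 27.7 CPM in Ofd1 CRISPR, 19.8 and 20.5 CPM in Kif3a CRISPR, and 58.2 and 27.4 CPM in GFP control. GFP control replicate 2 had no count of Ctss, Lyz2, Laptm5, Csf1r or Ptprc, and all 10 regulators were higher in it than in replicate 1, which had 7.47 CPM of Ctss. The RNA quality list, led by Malat1, was highest in Ofd1 CRISPR replicate 1, at 378 CPM, where the other 6 libraries had 196 to 304 CPM. Neat1 of that list fell with both guides, at -0.37 in Ofd1 CRISPR (adjusted p = 0.0259) and -0.58 in Kif3a CRISPR (adjusted p = 0.00315). The astrocyte list summed to 492 to 646 CPM in Ofd1 CRISPR, 634 and 521 CPM in Kif3a CRISPR, and 469 and 485 CPM in GFP control. The oligodendrocyte list summed to 40.6 to 47.2 CPM in Ofd1 CRISPR, 36.1 and 33.6 CPM in Kif3a CRISPR, and 44.8 and 42.6 CPM in GFP control. The endothelial list, with 1 of 8 genes past the filter, was low throughout and lower with both guides. It summed to 1.23 to 1.67 CPM in Ofd1 CRISPR, 0.518 and 0.755 CPM in Kif3a CRISPR, and 3.19 and 2.15 CPM in GFP control. Replicate 1 was lowest in both CRISPR groups, but in GFP control it was the higher library, opposite to the regulators. The part of these markers in the levels of the regulators was not tested.

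Downstream of the regulators, genes of amino acid supply fell almost as a whole with both guides. Of 23 tested genes of amino acid uptake, synthesis and one-carbon metabolism, 22 fell and none rose in Ofd1 CRISPR, with a median log2 fold change of -1.15, and 21 fell and none rose in Kif3a CRISPR, with a median of -1.33. Among all tested genes 6.79% were called higher in Ofd1 CRISPR and 9.19% in Kif3a CRISPR, beside the shares called lower given above. Slc7a11, the cystine carrier, fell, with a log2 fold change of -3.03 (SE 0.358, adjusted p = 0.00044) in Ofd1 CRISPR and -2.56 (SE 0.381, adjusted p = 0.000883) in Kif3a CRISPR, from few counts. Aldh1l2, a mitochondrial folate enzyme, fell, with a log2 fold change of -2.43 (SE 0.331, adjusted p = 0.000914) in Ofd1 CRISPR and -2.95 (SE 0.392, adjusted p = 0.000437) in Kif3a CRISPR. Cth, which makes cysteine, fell, with a log2 fold change of -1.88 (adjusted p = 0.000125) in Ofd1 CRISPR and -2.0 (adjusted p = 5.2e-05) in Kif3a CRISPR. Asparagine synthetase, Asns, a textbook ATF4 target singled out for that after its values were seen, had 106, 182 and 192 CPM in Ofd1 CRISPR, 119 and 161 CPM in Kif3a CRISPR, and 431 and 473 CPM in GFP control. The gene that missed the threshold with both guides was Cbs, at -1.02 in Ofd1 CRISPR and -0.83 in Kif3a CRISPR, with mean levels of 0.612 CPM in Ofd1 CRISPR, 0.701 CPM in Kif3a CRISPR and 1.25 CPM in GFP control. Psat1 missed it in Kif3a CRISPR at -0.30 (adjusted p = 0.0885).

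The cytosolic aminoacyl-tRNA synthetases, which load amino acids onto tRNA, were lower by less. Of 20 tested, 13 fell in Ofd1 CRISPR, with a median log2 fold change of -0.56, and 14 fell in Kif3a CRISPR, with a median of -0.64; without Kif3a CRISPR replicate 1 the second count was 6. Nars fell, with a log2 fold change of -0.90 (SE 0.112, adjusted p = 0.000617) in Ofd1 CRISPR and -0.96 (SE 0.125, adjusted p = 0.000396) in Kif3a CRISPR, and Cars and Sars came next with both guides. The single synthetase that rose was Farsa in Ofd1 CRISPR, at 0.23 (adjusted p = 0.0475), a call lost on leaving out any library other than Ofd1 CRISPR replicate 3. Among 18 other stress effectors, 14 fell in Ofd1 CRISPR and 15 in Kif3a CRISPR, with medians of -0.65 and -0.92 in that order, and none rose. Beside both lists, 8.09% of all tested genes were called lower and 6.79% higher in Ofd1 CRISPR. In Kif3a CRISPR these shares were 10.9% and 9.19%. The stress hormone Gdf15 fell, with a log2 fold change of -3.01 (SE 0.435, adjusted p = 0.00123) in Ofd1 CRISPR and -3.38 (SE 0.514, adjusted p = 0.000996) in Kif3a CRISPR. These values rest on few counts, at 0.197, 0.278 and 0.925 CPM in Ofd1 CRISPR and 0.216 and 0.539 CPM in Kif3a CRISPR. GFP control had 3.39 and 4.26 CPM of Gdf15. Stc2, a secreted glycoprotein, fell, with a log2 fold change of -1.71 (SE 0.156, adjusted p = 0.000208) in Ofd1 CRISPR and -2.63 (SE 0.191, adjusted p = 1.4e-05) in Kif3a CRISPR. The lists were written with results of these data known, so their direction is not independent evidence.

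**Figure D4:**
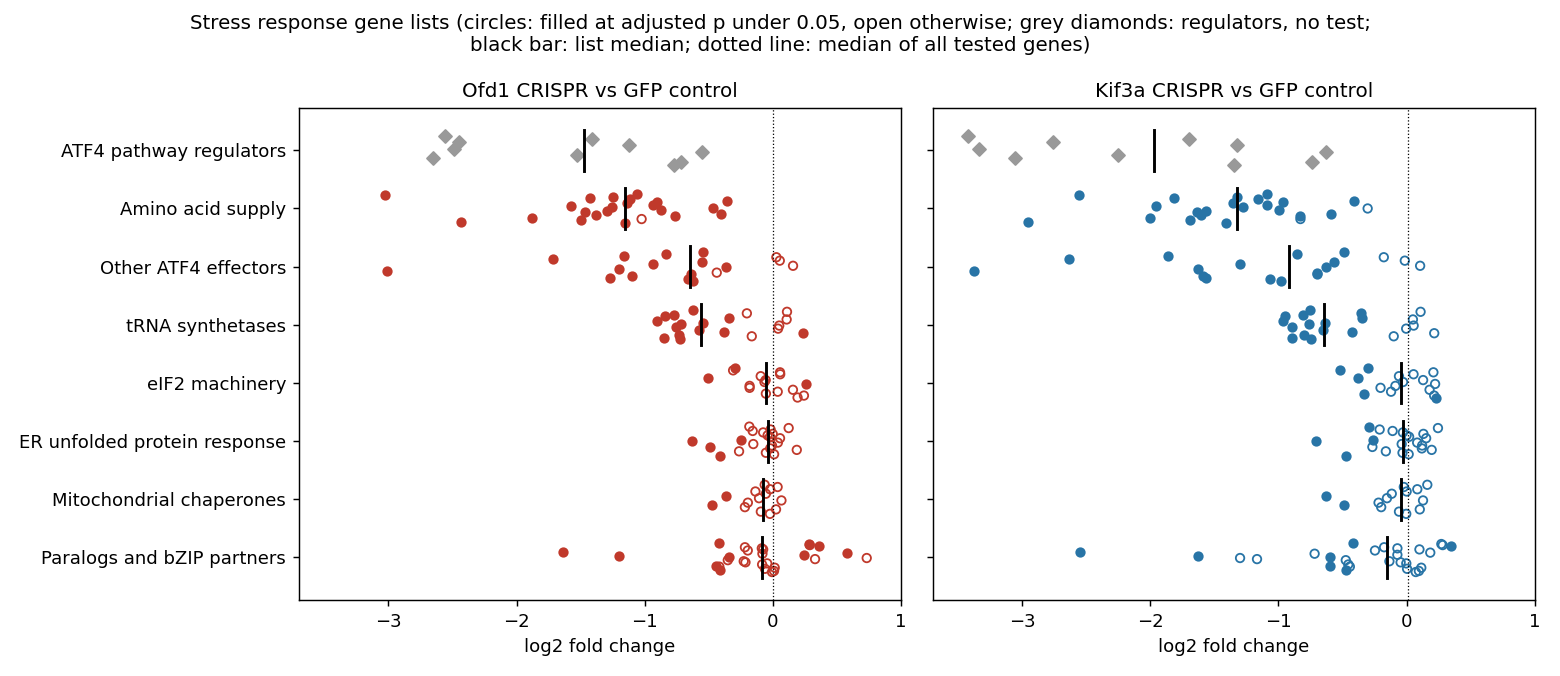
Log2 fold change of each tested gene in 8 lists, for Ofd1 CRISPR (left, red) and Kif3a CRISPR (right, blue) against GFP control; filled circles passed an adjusted p under 0.05, open circles did not, grey diamonds are the 10 regulators with no test, black bars are list medians and the dotted line is the median of all tested genes. The regulators, amino acid supply, other effectors and tRNA synthetases lie mostly below 0, with list medians from -1.97 to -0.56, while the medians of the other 4 lists lie between -0.16 and -0.03.

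Upstream of ATF4, the genes of the eIF2 machinery had medians near 0. Of 16 tested, 2 fell and 1 rose in Ofd1 CRISPR and 4 fell and 1 rose in Kif3a CRISPR, with medians of -0.06 and -0.04 in that order. Among all tested genes 8.09% fell and 6.79% rose in Ofd1 CRISPR, and 10.9% fell and 9.19% rose in Kif3a CRISPR. The eIF2 subunit Eif2s2 fell, with a log2 fold change of -0.50 (SE 0.105, adjusted p = 0.00843) in Ofd1 CRISPR and -0.38 (SE 0.115, adjusted p = 0.0378) in Kif3a CRISPR. Ppp1r15b, a subunit of the phosphatase that resets eIF2, fell, with a log2 fold change of -0.30 in Ofd1 CRISPR (adjusted p = 0.0114) and -0.30 in Kif3a CRISPR (adjusted p = 0.0131). Its relative Ppp1r15a, itself induced by ATF4, was at -0.31 in Ofd1 CRISPR (adjusted p = 0.0524) and fell by 0.52 in Kif3a CRISPR (adjusted p = 0.00643). Of the 4 eIF2 kinases, Eif2ak3, the endoplasmic reticulum kinase, fell by 0.33 in Kif3a CRISPR (adjusted p = 0.0155), and Eif2ak1, the heme-regulated kinase, rose by 0.23 there (adjusted p = 0.0483). Eif2ak4, the amino acid sensor GCN2, had 36.7, 32.3 and 31.6 CPM in Ofd1 CRISPR, 31.7 and 28.3 CPM in Kif3a CRISPR, and 32.1 and 33.2 CPM in GFP control. The Ofd1 CRISPR libraries overlapped those of GFP control, the Kif3a CRISPR libraries lay just below them, and Eif2ak4 passed the test with neither guide. The few calls of this list rest on single libraries: without GFP control replicate 1 or 2, 1 and 0 genes fell in Ofd1 CRISPR and 1 and 1 in Kif3a CRISPR, without Kif3a CRISPR replicate 1 none fell there, and no rise held without either GFP control library. The rise in Ofd1 CRISPR, of Eif2b4, was also lost without Ofd1 CRISPR replicate 1 or 2, and that of Eif2ak1 in Kif3a CRISPR without Ofd1 CRISPR replicate 2 or either Kif3a CRISPR library.

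The other branches of protein stress also had medians near 0. In the endoplasmic reticulum list, 4 of 21 genes fell with each guide and none rose, where 8.09% of all tested genes fell in Ofd1 CRISPR and 10.9% in Kif3a CRISPR, with medians of -0.04 in Ofd1 CRISPR and -0.03 in Kif3a CRISPR. The largest was Herpud1, at -0.63 (SE 0.0945, adjusted p = 0.00156) in Ofd1 CRISPR and -0.71 (SE 0.105, adjusted p = 0.000874) in Kif3a CRISPR, and it was the only gene of the list whose window held the composite element. Atf6 fell by 0.41 in Ofd1 CRISPR (adjusted p = 0.00197) and by 0.47 in Kif3a CRISPR (adjusted p = 0.00102). Hsp90b1 fell with both guides, Dnajb9 in Ofd1 CRISPR alone, and Xbp1 in Kif3a CRISPR alone, at -0.29 (adjusted p = 0.031). Hspa5, the main chaperone of the endoplasmic reticulum, did not pass, at 0.06 in Ofd1 CRISPR and 0.15 in Kif3a CRISPR. The count was 2 in both comparisons without GFP control replicate 1, and 2 in Kif3a CRISPR also without GFP control replicate 2 or either Kif3a CRISPR library, and 1 gene rose in Kif3a CRISPR without Ofd1 CRISPR replicate 1 or 3. Of 14 mitochondrial chaperones and proteases, Hspa9 and Lonp1 fell with both guides. They were at -0.48 and -0.37 in Ofd1 CRISPR and -0.49 and -0.63 in Kif3a CRISPR, and the other 12 did not pass. Without GFP control replicate 2, 1 gene of this list fell in Ofd1 CRISPR. Some called genes are counted in more than 1 list. Lonp1 is also among the other stress effectors. Atf6, of the endoplasmic reticulum list, and Jdp2, of the other effectors, are also among the paralogs and bZIP partners.

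Of close relatives of the regulators, Chac2, Trib1, Trib2 and Sesn1 had smaller or opposite log2 fold changes than Chac1, Trib3 and Sesn2, and the difference from gene to gene was not tested. Chac2, the second glutathione-degrading enzyme, was at -0.21 (adjusted p = 0.394) in Ofd1 CRISPR and -0.05 (adjusted p = 0.875) in Kif3a CRISPR. The relatives were chosen for description after their values were seen. Sesn1 rose by 0.36 (adjusted p = 0.00843) in Ofd1 CRISPR and by 0.35 (adjusted p = 0.011) in Kif3a CRISPR, where Sesn2 lay low, and Trib1 rose by 0.28 (adjusted p = 0.0446) in Ofd1 CRISPR. Trib2 fell, with a log2 fold change of -0.42 (adjusted p = 0.0328) in Ofd1 CRISPR and -0.41 (adjusted p = 0.0426) in Kif3a CRISPR, well short of Trib3. Of 28 paralogs and bZIP partners tested, 6 fell and 4 rose in Ofd1 CRISPR and 6 fell and 1 rose in Kif3a CRISPR, where the shares over all tested genes were 8.09% and 6.79% in Ofd1 CRISPR and 10.9% and 9.19% in Kif3a CRISPR. Maff, a small bZIP partner, fell most, with a log2 fold change of -1.64 (SE 0.214, adjusted p = 0.000776) in Ofd1 CRISPR and -2.55 (SE 0.260, adjusted p = 9.67e-05) in Kif3a CRISPR, followed by Jdp2 at -1.20 in Ofd1 CRISPR and -1.63 in Kif3a CRISPR, values further from 0 than those of its relative Atf3. In Ofd1 CRISPR, 3 fell without GFP control replicate 1 or 2, and the number that rose was 0 to 2 without any single library other than Ofd1 CRISPR replicate 3; in Kif3a CRISPR, 4 fell and 0 rose without Kif3a CRISPR replicate 1, 0 rose without GFP control replicate 2, and 2 rose without Ofd1 CRISPR replicate 1 or 3.

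Of 20 genes next to the regulators on the chromosome 13 were tested, and 1, Cebpa, was called, lower with both guides, a share near the 8.09% called lower among all tested genes in Ofd1 CRISPR and the 10.9% in Kif3a CRISPR. The other 12 ran from -0.21 to 0.14 on the log2 scale in Ofd1 CRISPR and from -0.31 to 0.16 in Kif3a CRISPR. Nup62 and Vrk3 flank Atf5, and were at -0.08 and 0.14 in Ofd1 CRISPR and at -0.17 and -0.05 in Kif3a CRISPR. Rbck1, beside Trib3, was at -0.03 in Ofd1 CRISPR and 0.01 in Kif3a CRISPR, and Ino80, beside Chac1, was at -0.04 in Ofd1 CRISPR and 0.11 in Kif3a CRISPR. The neighbours come from the RefSeq order of genes on GRCm38.

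Likeness of pattern was measured over the 7 libraries as the root mean square difference of log2(CPM + 0.5) after each gene's mean was removed. Among the 10 regulators themselves, Atf4 and Cebpg were the closest pair at 0.110, followed by Atf5 and Nupr1 at 0.170 and Atf5 and Trib3 at 0.219. Chac1 was nearest to Trib3 at 0.517, and Chac1 and Cebpg were the least alike at 1.43. Among 11448 other genes of at least 2 CPM, Aldh1l2 was the nearest to Atf5, Trib3 and Chac1, at 0.213, 0.215 and 0.445 in that order. It had 15.6, 42.7 and 49.2 CPM in Ofd1 CRISPR, 18.1 and 32.2 CPM in Kif3a CRISPR, and 172 and 214 CPM in GFP control. Trim66, a chromatin-linked protein, was the second for each of the 3, at 0.296, 0.294 and 0.557, with 2.91, 6.45 and 7.30 CPM in Ofd1 CRISPR, 2.59 and 4.91 CPM in Kif3a CRISPR, and 44.9 and 65.6 CPM in GFP control. Calb2, the calcium-binding protein calretinin, was the third for Atf5 and Trib3 at 0.349 and 0.329 and the last of 4 for Chac1 at 0.680. Cabp1, another calcium-binding protein, was the last of 4 for Atf5 at 0.354 and the third for Chac1 at 0.658, and the transcription factor Mef2b was the last of 4 for Trib3 at 0.390. All of these share the low replicate 1 libraries in both CRISPR groups, apart from Mef2b in Kif3a CRISPR, which had 0.691 and 0.539 CPM. They were picked for likeness over these same 7 libraries, so this sharing follows from the choice and is no evidence.

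The composite element was looked for in the other lists as well. Among genes with a window, its letters were in 6 of 19 amino acid supply genes, Asns and Slc7a11 included, and in 5 of 12 synthetase genes, which include Aars, Gars and Iars. They were in 3 of 15 genes of other effectors, 1 of 12 of the eIF2 machinery, 1 of 18 of the endoplasmic reticulum list, none of 11 mitochondrial genes and 1 of 23 paralogs and bZIP partners, beside 3.90% of all such genes. A match of letters is a description and not a bound site.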

How the data were processed

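RNA was sequenced from SMB21 neurospheres in 7 libraries, as stranded poly-A single-end reads of 75 bases per the labels' protocols. The deposited table holds raw counts per gene symbol, whole numbers without normalization. Per the submitters' processing notes, STAR, DESeq2 and mm9 were used, without version or role. No counter, annotation or strand setting is given in the sources used here, and overlapping or antisense genes may share reads.

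Genes were filtered with filterByExpr, which kept 12875 genes with 99.96% of the counts, and scaled by TMM in edgeR 4.0.16 (limma 3.58.1, R 4.3.3). All 7 libraries entered 1 quasi-likelihood fit with 3 group means (4 residual degrees of freedom, common biological coefficient of variation 7.43%), and calls were made two-sided at an adjusted p under 0.05 (Benjamini-Hochberg, over the 12875 genes). Each adjusted p is from this test unless DESeq2 1.42.0 is named. SEs were derived from the F statistic. The labels call the replicates biological; p-values measure the spread between these libraries. The scripts were tested on simulated data.

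The members, lists and tests were chosen with earlier results of these data known. All 10 regulators are named; of each list, up to 4 called genes with the largest log2 fold change; and the 4 other genes most alike in pattern to Atf5, Trib3 and Chac1. Exon lengths are from GENCODE M21, promoters from RefSeq. Alternatives were RLE factors, library totals, DESeq2, no filter, a replicate block, the 2 groups alone, and each library left out.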

Additional observations from a re-analysis of the deposited data

How the results depend on the processing

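Over all alternatives, the log2 fold change of the 10 regulators against GFP control stayed below 0 in 260 of 260 cases. The regulators were chosen for low levels in these same libraries. This sign was therefore set by the choice, and neither it nor the calls against GFP control below are evidence. Atf5 ran from -2.87 to -2.41 in Ofd1 CRISPR and from -3.60 to -2.65 in Kif3a CRISPR, Trib3, in the same order, from -2.87 to -2.17 and from -3.89 to -3.02, and Chac1 from -3.31 to -1.98 and from -4.49 to -2.64. With 1 library left out, 8 to 10 regulators were called lower in each comparison with GFP control. The lowest counts were in Ofd1 CRISPR without GFP control replicate 2, where Atf3 and Chac1 lost the call, and in Kif3a CRISPR without replicate 1 of that group, where Atf4 and Chac1 lost it; DESeq2 called 9 in Ofd1 CRISPR. In Ofd1 against Kif3a CRISPR, 1 regulator, Cebpb, was called higher with DESeq2, 1 without the filter and 1 with the replicate block, and 0 to 0 with a library left out.

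Over all tested genes, 874 were called higher and 1041 lower in Ofd1 CRISPR, or 1154 and 852 when scaled by library totals, and 1183 higher and 1401 lower in Kif3a CRISPR, or 1486 and 1251. Left-out libraries gave 270 to 1321 higher and 378 to 1510 lower in Ofd1 CRISPR, 281 to 1478 higher and 405 to 1641 lower in Kif3a CRISPR, and 0 to 44 higher and 0 to 6 lower in Ofd1 against Kif3a CRISPR, where 22 were higher and 1 lower. The lowest counts against GFP control came without either of its libraries or without Kif3a CRISPR replicate 1. In Ofd1 against Kif3a CRISPR, 82 were higher and 4 lower with DESeq2, 75 and 5 without the filter, and 0 lower with the 2 groups alone. With a replicate block, 1620 were higher and 1876 lower in Ofd1 CRISPR, and 124 higher and 67 lower in Ofd1 against Kif3a CRISPR. Whether the replicate numbers pair the libraries is not settled by these values. Same-numbered deviations from the group mean correlated at 0.01 between GFP control and Kif3a CRISPR and at 0.154 to 0.332 elsewhere. Of 7 libraries, 6 correlated best with a library of their own number. The exception was Ofd1 CRISPR replicate 3, which could not, as the other groups have no replicate 3. In a group of 2 libraries the deviations mirror each other, so these correlations are a weak check. Apart from fewer libraries where some were left out, the cause of these shifts was not tested.

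Chac1 rests on 35 counts in Ofd1 CRISPR replicate 1, and its SE is the widest of the 10.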
